A study of Arabidopsis thaliana with 8 samples.

Results

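The scs1 scs2a double mutant of Arabidopsis thaliana was compared with its wild type, Col-0, at the level of RNA in seedlings. The genes described are the 21642 of 32548 loci in the deposited table that reached 10 or more normalised counts in at least 2 of the 4 scs1 scs2a and wild type libraries. This rule uses the level of a gene and not a difference between the genotypes. RNA-seq had been made from 4 genotypes with 2 libraries each, the double mutant scs1 scs2a (scs1-/-scs2a-/- in the labels), the single mutants hag1 (hag1-/-) and ada2b (ada2b-/-), and wild type Col-0. Every group consisted of seedlings aged 12 days, grown on MS plates at 22 °C under 16 h of light and 8 h of dark. Neither the alleles nor a shared transgene is named in the labels, so the kind of lesion in each gene and the share of its function that was left are not known here.

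SAGA is a coactivator complex that is shared by yeast, animals and plants. Its acetyltransferase module, in which the enzyme HAG1 (GCN5) works together with ADA2B, acetylates histone H3 near gene starts, and a second module removes ubiquitin from histone H2B. In Arabidopsis, mutants of HAG1 and ADA2B are small plants with altered light, cold, hormone and flowering responses. The question that the design addresses is which transcripts differ in each mutant genotype. No scs1 or scs2a single mutant was among the genotypes, so effects of SCS1 and SCS2A cannot be told apart.

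Total RNA was sequenced as single reads of 50 bp. The summed normalised counts of the 8 libraries lay between 20570967 and 22344725, and a library was worth an estimated 20420912 to 22088405 reads. The 10 most abundant loci took 4.51% to 5.59% of a library. Between replicates of a genotype the squared difference of a locus averaged 4.92 to 7.27 times what counting alone gives, and the median locus differed by 0.106 on the log2 scale between the scs1 scs2a libraries and by 0.106 between the wild type libraries. No pair of libraries was close enough to be the same library deposited more than once. The labels do not say that replicates came from separate cultures, so p-values below reflect only how these libraries vary, and that variation may be technical.

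Of the 21642 loci, 20754 reached 10 in all 4 libraries, 468 in 3 and 420 in 2. A further 487 loci reached it in 1 library and 10419 in none, and these are not described. There were 126 loci that entered through both scs1 scs2a libraries alone, 54 of them called higher, and 168 that entered through both wild type libraries alone, 77 of them called lower. Such loci had to differ, and they are included in the counts below. Of the other 21348 loci, 1905 were called higher (8.92%) and 2904 lower (13.6%). Among these other loci, the chlorophyll synthesis, floral promoter and root marker lists below each had 4 lower genes, and the auxin list had 3. The heat shock list then had 1 higher gene. For the abscisic acid and jasmonate lists this is given below.

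More genes were lower than higher in the double mutant. With limma on log2(value + 1) and Benjamini-Hochberg adjustment over the 25459 loci fitted, 1959 of the 21642 loci were higher in scs1 scs2a than in wild type at an adjusted p under 0.05, which is 9.05%, and 2981 were lower, which is 13.8%. The differences were mostly small. The median size was 0.40 on the log2 scale among the higher genes and 0.50 among the lower genes. A difference of at least 2-fold was called for 267 genes in the higher direction (1.23%) and for 564 in the lower direction (2.61%), and one of at least 4-fold for 32 and 109 genes. Over all 21642 loci the median log2 difference was 0.01, and 90% of loci lay between -0.80 and 0.58 (5th to 95th percentile). The shares of 9.05% higher and 13.8% lower are the background for every list count against wild type below. The counts rested on having 2 libraries per group. Without scs1 scs2a replicate 1, scs1 scs2a replicate 2, wild type replicate 1 or wild type replicate 2, 1071, 465, 397 or 467 genes were called higher and 2032, 1178, 768 or 1098 were called lower. An exact permutation test of 2 against 2 libraries cannot give a two-sided p below 0.333.

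**Figure D1:**
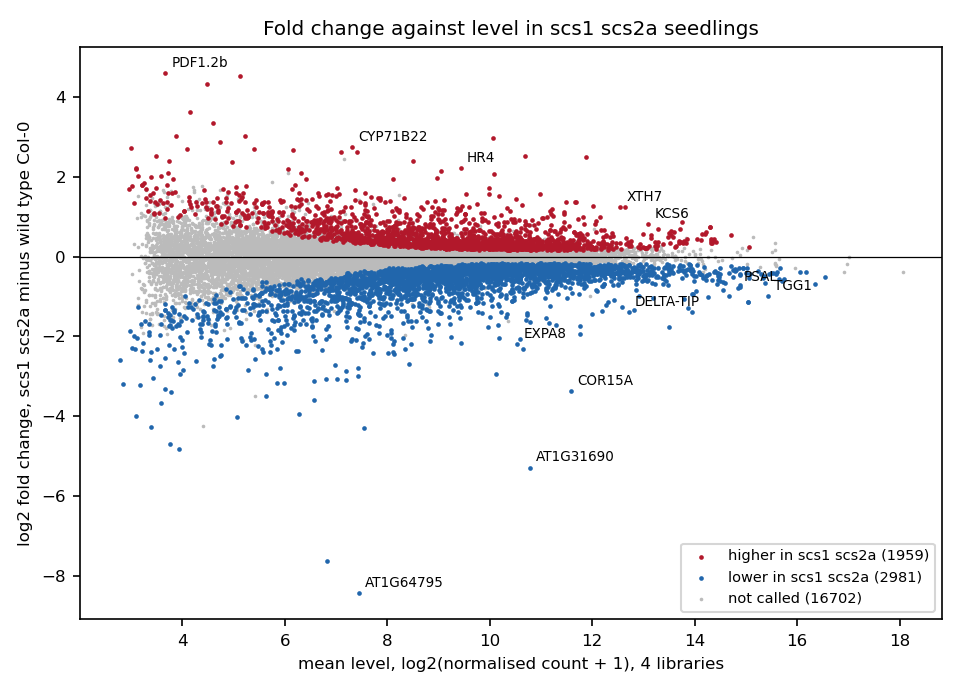
Each point is 1 of the 21642 loci, with its mean level over the 4 libraries, log2(normalised count + 1), on the horizontal axis and its log2 difference of scs1 scs2a minus wild type Col-0 on the vertical axis. Colours mark the 1959 loci called higher and the 2981 called lower against wild type. Blue points outnumber red ones at high levels, where 37.9% of the genes above a mean of 3000 normalised counts were called lower and 14.2% higher. Calls of 2-fold or more made up a smaller share there than below 30.

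Calls were most frequent among abundant transcripts, and most of those were lower. Above a mean of 3000 normalised counts, 14.2% of 1236 genes were called higher and 37.9% lower, and their median log2 difference was -0.07. Between 1000 and 3000, 13.5% were higher and 21.3% lower, and below 30, 4.04% were higher and 6.04% lower. The median standard error was 0.06 above 3000 and 0.36 below 30, so smaller differences could be called in abundant genes. Calls of 2-fold or more were most frequent below 30, with 3.66% higher and 5.85% lower, against 0.57% and 1.54% above 3000. Lower genes outnumbered higher ones in every range of level. The calls were spread over the 5 nuclear chromosomes, with 8.23% to 9.82% of loci higher and 12.8% to 15.2% lower on each. Of 20327 protein-coding loci, 1895 were higher and 2870 lower, of 1010 long non-coding RNAs 53 and 91, and of 36 microRNA loci 4 and 3.

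The transcripts of the complex itself differed little. HAG1, the acetyltransferase, had 345 and 345 normalised counts in scs1 scs2a, against 296 and 328 in wild type, a log2 fold change of 0.14 ± 0.09 (standard error here and below, adjusted p = 0.3). ADA2B, its partner, had 692 and 711 in scs1 scs2a and 708 and 712 in wild type (log2 fold change -0.02 ± 0.07, adjusted p = 0.9). With limma, none of the 5 listed genes of the acetyltransferase module was called, and none of them had an unadjusted p under 0.05. None of the 11 listed core and TAF genes was called, with 2 higher and 0 lower at an unadjusted p under 0.05. In the deubiquitination module, the protease gene UBP22 had 372 and 374 in scs1 scs2a and 364 and 348 in wild type (log2 fold change 0.07 ± 0.07, adjusted p = 0.548), while AT5G58575, annotated as SAGA-associated factor-like, had 265 and 265 in scs1 scs2a and 211 and 219.7 in wild type (log2 fold change 0.30 ± 0.08, adjusted p = 0.0317). The call of AT5G58575 ended when scs1 scs2a replicate 1 (adjusted p = 0.105), scs1 scs2a replicate 2 (0.13), wild type replicate 1 (0.112) or wild type replicate 2 (0.0751) was left out. The HAG1 transcript checked the labels of another group, with 131 and 133 in the hag1 libraries. ADA2B had 567 and 613 in the ada2b libraries, which is not a check, since a mutation need not lower the transcript. SCS1 and SCS2A themselves are not analysed here by name. None of 9 other listed histone acetyltransferase genes was called by limma, and none had an unadjusted p under 0.05. Of 11 histone deacetylase genes, HD2B (log2 fold change 0.31 ± 0.06, adjusted p = 0.00994) and HDA3 (log2 fold change 0.29 ± 0.08, adjusted p = 0.0423) were higher and HDA14 (log2 fold change -0.24 ± 0.07, adjusted p = 0.041) was lower, beside 9.05% and 13.8% of all loci. The HD2B call ended when scs1 scs2a replicate 2 (adjusted p = 0.0789), wild type replicate 1 (0.0688) or wild type replicate 2 (0.0937) was left out, the HDA3 call when scs1 scs2a replicate 2 (adjusted p = 0.249), wild type replicate 1 (0.158) or wild type replicate 2 (0.208) was left out, and the HDA14 call when scs1 scs2a replicate 2 (adjusted p = 0.236), wild type replicate 1 (0.19) or wild type replicate 2 (0.138) was left out.

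The deepest loss was at AT1G64795, annotated as an uncharacterised protein, which had 0 and 0 normalised counts in scs1 scs2a, against 353 and 339 in wild type. With no read in either mutant library it was at least 243-fold lower, taking a floor of 3 counts over the group (fitted log2 fold change -8.44 ± 0.24, adjusted p = 4.35e-06). It had 1.05 and 0.978 in hag1 and 276 and 299 in ada2b, so that ada2b lay near wild type while scs1 scs2a and hag1 were at or near 0. AT1G31690, of the copper amine oxidase family, had 89.1 and 83.8 in scs1 scs2a and 3284 and 3579.6 in wild type (log2 fold change -5.29 ± 0.43, adjusted p = 0.000418). Its level was lower still in the single mutants, with 7.32 and 8.83 in hag1 and 2 and 0 in ada2b. AT2G01422, an annotated non-coding RNA, had 0 and 0 in scs1 scs2a and 116 and 332 in wild type, at least 158-fold lower, but the wild type libraries differed and the call ended when wild type replicate 1 (adjusted p = 0.0628) or wild type replicate 2 (0.0873) was left out. These 3 loci were chosen among called loci whose mutant libraries both lay below both wild type libraries. AT1G64795 and AT2G01422 entered through the wild type libraries alone, so some difference was set by the rule.

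Several low-abundance genes were present in wild type and at or near 0 in the double mutant. FOP1, TBL15, PRB1 and CHAT entered through the wild type libraries alone, so some difference was set by the rule. FOP1 (FOLDED PETALS 1, an acyltransferase gene) had 0 and 0 in scs1 scs2a and 20.9 and 36 in wild type, at least 20.1-fold lower (adjusted p = 0.000748). TBL15, a member of the TRICHOME BIREFRINGENCE-LIKE family that acetylates wall polysaccharides, had 0 and 0 in scs1 scs2a and 22.7 and 15.1 in wild type, at least 13.3-fold lower (adjusted p = 0.000757). PRB1, which encodes a basic pathogenesis-related protein, had 3.85 and 1.88 in scs1 scs2a and 45.2 and 79.5 in wild type, a ratio of reads of 0.0458 (95% interval 0.0165 to 0.103) (adjusted p = 0.0011). CHAT makes the leaf volatile hexenyl acetate. It had 1.93 and 0 in scs1 scs2a and 20.7 and 21.3 in wild type, a ratio of reads of 0.045 (95% interval 0.00527 to 0.174) (adjusted p = 0.00311). These intervals are exact and cover counting error only. CYP707A2, which breaks down abscisic acid, had 32.7 and 21.8 in scs1 scs2a and 244 and 219.97 in wild type (log2 fold change -3.07 ± 0.41, adjusted p = 0.0021). The CYP707A2 call ended when wild type replicate 1 (adjusted p = 0.0522) was left out. DAA1, an AAA-type ATPase, had 18.2 and 18.1 in scs1 scs2a and 130.4 and 209 in wild type (log2 fold change -3.12 ± 0.36, adjusted p = 0.0012).

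**Figure D2:**
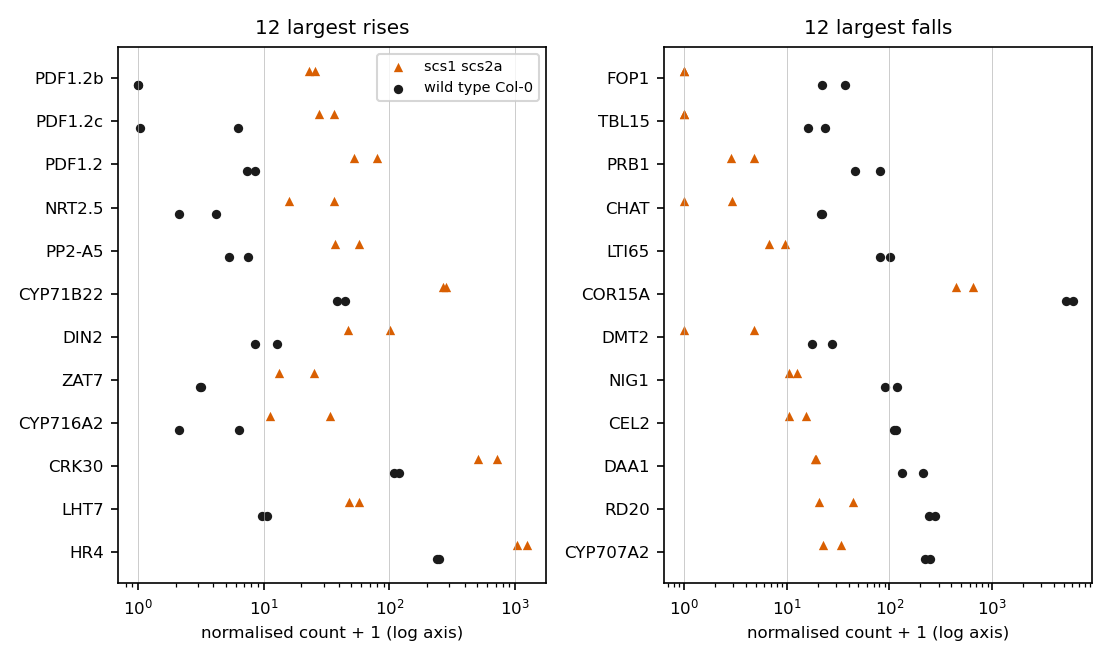
Normalised count + 1 on a log axis for the 12 genes with the largest differences in each direction among called genes that have a symbol, with 1 mark per library, triangles for scs1 scs2a and dots for wild type Col-0. The marks of the genotypes are separate in every gene, as the rule that chose these genes requires.

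Among the genes that were higher, the plant defensin PDF1.2b had 22 and 24.8 in scs1 scs2a and 0 and 0 in wild type, at least 14.3-fold higher (fitted log2 fold change 4.61 ± 0.43, adjusted p = 0.000618). CYP71B22, a cytochrome P450 gene, had 268 and 283 in scs1 scs2a and 37.1 and 43.6 in wild type (log2 fold change 2.74 ± 0.18, adjusted p = 0.000168). HR4, a homologue of the resistance gene RPW8, had 1041 and 1231 in scs1 scs2a and 247 and 239 in wild type (log2 fold change 2.22 ± 0.13, adjusted p = 0.000126). The largest differences were chosen among called genes with separate groups. In this paragraph PDF1.2b, LHT7, PP2-A5 and AT3G05955 entered through the scs1 scs2a libraries alone, so some difference was set by the rule. CRK30, a cysteine-rich receptor-like kinase, had 503 and 718 in scs1 scs2a and 108 and 119 in wild type (log2 fold change 2.40 ± 0.22, adjusted p = 0.00056). LHT7, of a family of amino acid transporters, had 56.6 and 46.6 in scs1 scs2a and 8.72 and 9.59 in wild type (log2 fold change 2.37 ± 0.25, adjusted p = 0.00095). Of the low genes, PP2-A5, of the phloem protein 2 family, had 36.2 and 56.4 in scs1 scs2a and 6.48 and 4.31 in wild type, a ratio of reads of 8.52 (95% interval 4.44 to 18.3) (adjusted p = 0.00138). The long non-coding RNA AT3G05955 had 46.1 and 36.1 in scs1 scs2a and 3.2 and 0.0255 in wild type, a ratio of reads of 25.2 (95% interval 8.33 to 124) (adjusted p = 0.0027), where a value below 1 is less than a read is worth after the authors' normalisation. DIN2, a beta-glucosidase induced in the dark, had 45.5 and 99.6 in scs1 scs2a and 11.9 and 7.54 in wild type (log2 fold change 2.71 ± 0.35, adjusted p = 0.00193), and was far higher in hag1, at 519 and 659.

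Some abundant genes also differed by far more than most, and the following were chosen after their values were seen. AT3G15356 and AT3G16530, annotated as legume lectin family proteins, were higher. AT3G15356 had 1564 and 2218 in scs1 scs2a and 232 and 243 in wild type (log2 fold change 2.97 ± 0.16, adjusted p = 0.000103). AT3G16530 had 5442 and 7415 in scs1 scs2a and 1114 and 1133 in wild type (log2 fold change 2.50 ± 0.12, adjusted p = 0.000103). AT3G15356 had 1389 and 1151 in hag1 and 1509.6 and 1763 in ada2b, above both wild type libraries. PRXCA, a cell wall peroxidase, had 1516 and 2009.8 in scs1 scs2a and 404 and 431 in wild type (log2 fold change 2.06 ± 0.12, adjusted p = 0.000122). AT1G15125, annotated as a methyltransferase, had 765 and 835 in scs1 scs2a and 189 and 214 in wild type (log2 fold change 1.98 ± 0.09, adjusted p = 9.28e-05). The calls of these 4 genes held with any 1 library left out. Among the lower genes, ECS1 had 8813 and 8604 in scs1 scs2a and 21700.2 and 23757 in wild type (log2 fold change -1.38 ± 0.22, adjusted p = 0.00411). The ECS1 call ended when wild type replicate 1 (adjusted p = 0.0679) or wild type replicate 2 (0.0776) was left out. CCL, whose name stands for CCR-like, had 9406 and 8155 in scs1 scs2a and 23236 and 19473 in wild type (log2 fold change -1.28 ± 0.12, adjusted p = 0.000563). AT2G33830, annotated as dormancy and auxin associated, had 619.9 and 553 in scs1 scs2a and 2796 and 2173 in wild type (log2 fold change -2.07 ± 0.14, adjusted p = 0.000225). AT4G33720, of the family of PR-1-like CAP proteins, had 401 and 159.7 in scs1 scs2a and 2011 and 1893 in wild type (log2 fold change -2.94 ± 0.60, adjusted p = 0.0113). Its scs1 scs2a libraries differed from each other more than its wild type libraries, and the call ended when scs1 scs2a replicate 2 (adjusted p = 0.0999), wild type replicate 1 (0.124) or wild type replicate 2 (0.116) was left out. AT4G33720 had 1 and 0.971 in ada2b and 99.4 and 24.2 in hag1, so every mutant library lay below both wild type libraries.

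Genes of the light reactions were lower as a group. Of 12 listed photosystem I genes 11 were lower and none was higher, with a median log2 difference of -0.49. Of 9 photosystem II genes 9 were lower (median -0.44), and of 15 antenna genes 12 were lower (median -0.66), while 13.8% of all loci were lower and their median was 0.01. Most of these genes are abundant. Among the 1236 loci with a mean above 3000 normalised counts, 37.9% were lower and the median was -0.07. PSAL, a photosystem I subunit that docks the mobile antenna, had 23285 and 19931 normalised counts in scs1 scs2a and 37608 and 36222 in wild type (log2 fold change -0.78 ± 0.08, adjusted p = 0.00104). PSBP-1, of the oxygen-evolving complex, had 43316 and 40247 in scs1 scs2a and 64655 and 58004 in wild type (log2 fold change -0.55 ± 0.09, adjusted p = 0.00366). The antenna gene LHCA1 had 12204 and 9731 in scs1 scs2a and 22748 and 19012 in wild type (log2 fold change -0.93 ± 0.12, adjusted p = 0.00216). In none of these did the groups overlap. Here and below, separate groups describe the values of the named genes and are not a further test. Single antenna genes with near-identical copies, such as LHB1B2 (log2 fold change -1.15 ± 0.16, adjusted p = 0.00282; the call ended when wild type replicate 1 (adjusted p = 0.0565) was left out), are uncertain because the counting of shared reads is not known. LHB1B2 is also 1 of 53 cases of overlapping loci with values within 1% of each other in all 4 libraries. AT2G08665, annotated as a non-coding RNA on the other strand, had 23176 and 18809 in scs1 scs2a and 53389.5 and 40203 in wild type, while LHB1B2 had 23175 and 18808 in scs1 scs2a and 53389 and 40202 in wild type, so the reads of these loci cannot be told apart. The annotated span of 6938 of the 21642 loci (32.1%) overlaps that of another of them, on the same or the other strand. How reads of such overlaps were counted is not known. Of the 14704 loci without such an overlap, 9.32% were higher and 14.6% lower. LHCA4, of the photosystem I antenna, had 9522 and 8567 in scs1 scs2a and 23767 and 15123 in wild type (log2 fold change -1.07 ± 0.19, adjusted p = 0.00632; the call ended when scs1 scs2a replicate 2 (adjusted p = 0.0635) or wild type replicate 1 (0.0529) was left out). The counts depended on single libraries. Without wild type replicate 1, 1 photosystem I gene, 0 photosystem II genes and 2 antenna genes were called lower, without scs1 scs2a replicate 2 the counts were 6, 3 and 3, and without wild type replicate 2 they were 9, 5 and 9. Fitted on the 2 groups alone they were 6, 2 and 3, and with no trend of the prior variance 9, 7 and 5. The PSBP-1 call ended when wild type replicate 1 (adjusted p = 0.053) was left out and the LHCA1 call when wild type replicate 1 (adjusted p = 0.0528) was left out, while that of PSAL held in all 4 cases. In these bulk samples of seedlings, fewer cells of a type and less RNA per cell cannot be told apart.

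Of 5 listed Rubisco and activase genes 1 was lower (median -0.28). RBCS1A, the most abundant small subunit gene of Rubisco, had 249204 and 228249 in scs1 scs2a and 308640 and 309445 in wild type (log2 fold change -0.37 ± 0.13, adjusted p = 0.0849) and was not called. RBCS3B, whose near-identical neighbours share reads with it, had 83216 and 72968 in scs1 scs2a and 114547 and 109157 in wild type (log2 fold change -0.52 ± 0.10, adjusted p = 0.00901). The RBCS3B call ended when scs1 scs2a replicate 2 (adjusted p = 0.0686), wild type replicate 1 (0.0879) or wild type replicate 2 (0.0662) was left out. The activase gene RCA had 128438 and 112335 in scs1 scs2a and 137389 and 133802 in wild type (log2 fold change -0.17 ± 0.11, adjusted p = 0.316). In chlorophyll synthesis 5 of 13 genes were lower and 1 was higher (median -0.16), with 1 lower without wild type replicate 1, 3 without wild type replicate 2 and 4 without 1 of the scs1 scs2a libraries. The protochlorophyllide reductase gene POR C had 3879 and 3426 in scs1 scs2a and 5514 and 5314 in wild type (log2 fold change -0.57 ± 0.06, adjusted p = 0.0011). GPRI1, also called GLK1, is a transcription factor of chloroplast genes. It had 3098 and 2527 in scs1 scs2a and 4398 and 4997 in wild type (log2 fold change -0.74 ± 0.12, adjusted p = 0.004). The GPRI1 call ended when wild type replicate 1 (adjusted p = 0.0515) or wild type replicate 2 (0.0739) was left out. HEMA1, which starts the pathway, was the higher gene (log2 fold change 0.42 ± 0.09, adjusted p = 0.0132; the call ended when scs1 scs2a replicate 2 (adjusted p = 0.104), wild type replicate 1 (0.0702) or wild type replicate 2 (0.131) was left out).

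Markers of organs gave the following values beside these results. The summed level of 6 leaf mesophyll markers, 3 of them called lower, was 521837 and 470184 in scs1 scs2a and 653959 and 618771 in wild type. Of these markers, PSAL, LHCB3 and POR C also belong to the lists above. The summed level of 14 root markers was 60736 and 59803 in scs1 scs2a, against 50365 and 48622 in wild type, with 1 marker called higher and 5 lower (0 to 3 lower with 1 library left out, the fewest without wild type replicate 1). The root hair wall gene LRX1 was the higher one (log2 fold change 1.08 ± 0.20, adjusted p = 0.00844; its call ended when scs1 scs2a replicate 2 (adjusted p = 0.0808), wild type replicate 1 (0.11) or wild type replicate 2 (0.0899) was left out), and the lower ones included WOX5 and HKT1 and the aquaporins TIP2;2 and TIP2;3, which are listed again with the aquaporins below. Of 7 detected shoot meristem markers 2 were lower (0 or 1 with 1 library left out), and their sum was 1764 and 1578 in scs1 scs2a and 2060 and 2266 in wild type. None of 12 seed markers reached the rule, and their sums were 17.4 and 0 in scs1 scs2a and 8.75 and 10.7 in wild type. The 2 floral markers that reached it were not called by limma, and neither had an unadjusted p under 0.05. The part of a shift in tissue shares in the results was not tested.

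**Figure D3:**
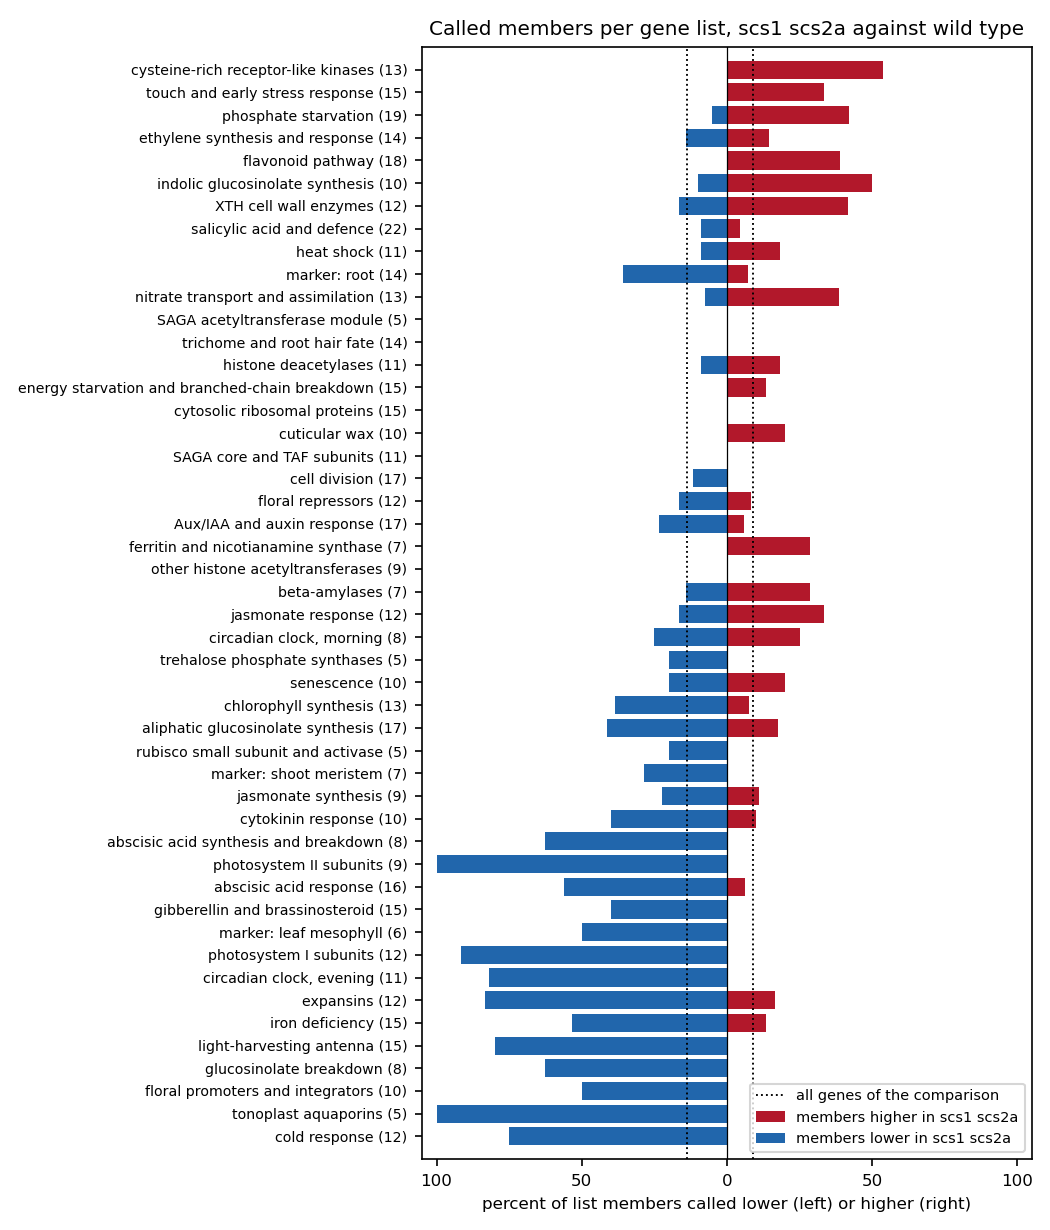
For each gene list shown, the bars give the percent of its members called higher (right) and lower (left) in scs1 scs2a against wild type Col-0. The dotted lines give the shares of all 21642 loci, 9.05% and 13.8%. The lists with the fewest members are left out, namely galactinol synthases, the SAGA deubiquitination module, and the seed and floral organ markers. The light-reaction, cold, evening clock, expansin and tonoplast aquaporin lists reach far to the lower side, and the receptor-like kinase and phosphate lists to the higher side.

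Cold-response genes were among the most strongly reduced. Of 12 listed members 9 were lower and none was higher, with a median log2 difference of -0.99. COR15A, whose product protects chloroplast membranes during freezing, had 654 and 443 normalised counts in scs1 scs2a and 5229 and 6024 in wild type (log2 fold change -3.38 ± 0.31, adjusted p = 0.000563). Its neighbour COR15B had 693 and 411 in scs1 scs2a and 2719 and 2591 in wild type (log2 fold change -2.31 ± 0.20, adjusted p = 0.000489). KIN2, also called COR6.6, had 1829 and 1115 in scs1 scs2a and 5340.4 and 5583 in wild type (log2 fold change -1.93 ± 0.21, adjusted p = 0.00104). Both mutant libraries lay below both wild type libraries in all 3, and reads of KIN2 and its near-identical neighbour KIN1 (log2 fold change -1.20 ± 0.14, adjusted p = 0.00153) may have been mixed. LTI78 (RD29A), a widely used reporter of cold and drought, had 1830.4 and 1815 in scs1 scs2a and 3197 and 3041 in wild type (log2 fold change -0.77 ± 0.13, adjusted p = 0.00518). The LTI78 call ended when wild type replicate 1 (adjusted p = 0.0852) or wild type replicate 2 (0.0692) was left out. Without wild type replicate 1, 5 genes of the list were called lower. Among the galactinol synthases, which start the making of raffinose sugars, GolS4 had 13.4 and 15.3 in scs1 scs2a and 66.3 and 63 in wild type (log2 fold change -2.10 ± 0.27, adjusted p = 0.0019); GolS2 was the other of 4 that was lower (log2 fold change -2.44 ± 0.69, adjusted p = 0.0394). The GolS2 call ended when scs1 scs2a replicate 2 (adjusted p = 0.243), wild type replicate 1 (0.201) or wild type replicate 2 (0.218) was left out.

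Many abscisic acid genes were lower as well. Of 16 response genes 9 were lower and 1 was higher (median -0.47), and of 8 genes of its synthesis and breakdown 5 were lower and 0 were higher (median -0.43). RD20, a caleosin induced by drought, had 43.3 and 19.8 in scs1 scs2a and 239.6 and 279 in wild type (log2 fold change -3.10 ± 0.39, adjusted p = 0.0018). LTI65 (RD29B) had 8.65 and 5.68 in scs1 scs2a and 79.7 and 101 in wild type (log2 fold change -3.50 ± 0.59, adjusted p = 0.00541). The LTI65 call ended when scs1 scs2a replicate 2 (adjusted p = 0.0545), wild type replicate 1 (0.0698) or wild type replicate 2 (0.0805) was left out. LTI65 is 1 of the loci that entered through the wild type libraries alone, as is CYP707A4 below, and without them 8 response genes and 4 of synthesis and breakdown were lower. HAI2, a protein phosphatase that holds back the pathway, had 30.7 and 20.8 in scs1 scs2a and 81.2 and 127 in wild type (log2 fold change -1.96 ± 0.39, adjusted p = 0.0101), with its call ending when scs1 scs2a replicate 2 (adjusted p = 0.0868), wild type replicate 1 (0.0585) or wild type replicate 2 (0.106) was left out. Genes that make the hormone and genes that break it down were both lower, with NCED3, which makes its precursor, at 68.1 and 54.2 in scs1 scs2a and 107 and 122 in wild type (log2 fold change -0.90 ± 0.20, adjusted p = 0.0172), and CYP707A4, which breaks the hormone down, at 4.81 and 2.83 in scs1 scs2a and 21.7 and 20.3 in wild type, a ratio of reads of 0.18 (95% interval 0.0727 to 0.391) (adjusted p = 0.00351). The NCED3 call ended when scs1 scs2a replicate 2 (adjusted p = 0.122), wild type replicate 1 (0.0823) or wild type replicate 2 (0.121) was left out. Without scs1 scs2a replicate 1, 8 response genes were called lower, and without each of the other 3 libraries 1. For synthesis and breakdown these counts were 5 without scs1 scs2a replicate 1, 2 without scs1 scs2a replicate 2 or wild type replicate 1, and 3 without wild type replicate 2.

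The promoters of 3 of these genes are shown because they hold letters that cold and abscisic acid factors are known to bind, CCGAC (the C-repeat), ACGTG (the core of the abscisic acid element) or both. Each is the 250 bases before the annotated start on the gene's own strand, from RefSeq's TAIR10.1, and capitals mark either motif on either strand.
COR15A promoter, - strand, chr2:17712331-17712580: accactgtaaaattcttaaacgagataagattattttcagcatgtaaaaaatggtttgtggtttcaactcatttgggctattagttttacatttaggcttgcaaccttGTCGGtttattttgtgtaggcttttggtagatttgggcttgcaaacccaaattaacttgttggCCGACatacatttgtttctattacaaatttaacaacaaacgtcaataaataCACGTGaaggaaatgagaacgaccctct
LTI65 promoter, + strand, chr5:21236771-21237020: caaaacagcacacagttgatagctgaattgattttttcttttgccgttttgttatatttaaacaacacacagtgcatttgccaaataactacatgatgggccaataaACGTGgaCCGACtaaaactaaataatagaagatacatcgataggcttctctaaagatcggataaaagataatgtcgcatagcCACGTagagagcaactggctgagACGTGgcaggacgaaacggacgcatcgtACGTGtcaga
RD20 promoter, - strand, chr2:14146556-14146805: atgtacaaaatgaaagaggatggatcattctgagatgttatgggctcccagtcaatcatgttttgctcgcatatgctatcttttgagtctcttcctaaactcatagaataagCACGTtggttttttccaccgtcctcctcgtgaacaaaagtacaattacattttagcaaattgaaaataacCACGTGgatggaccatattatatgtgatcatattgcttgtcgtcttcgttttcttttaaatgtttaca
The COR15A promoter holds 3 marked stretches, that of LTI65 5 and that of RD20 2. A stretch of CACGTG reads ACGTG on both strands. The RD20 promoter holds ACGTG but not CCGAC. In 250 bases, CCGAC was found in 5 of 12 cold genes, against 12.7% of all 21641 promoters, and ACGTG in 10 of 16 abscisic acid response genes, against 23.1% of all promoters. A match is a description of letters, not a bound site.

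**Figure D4:**
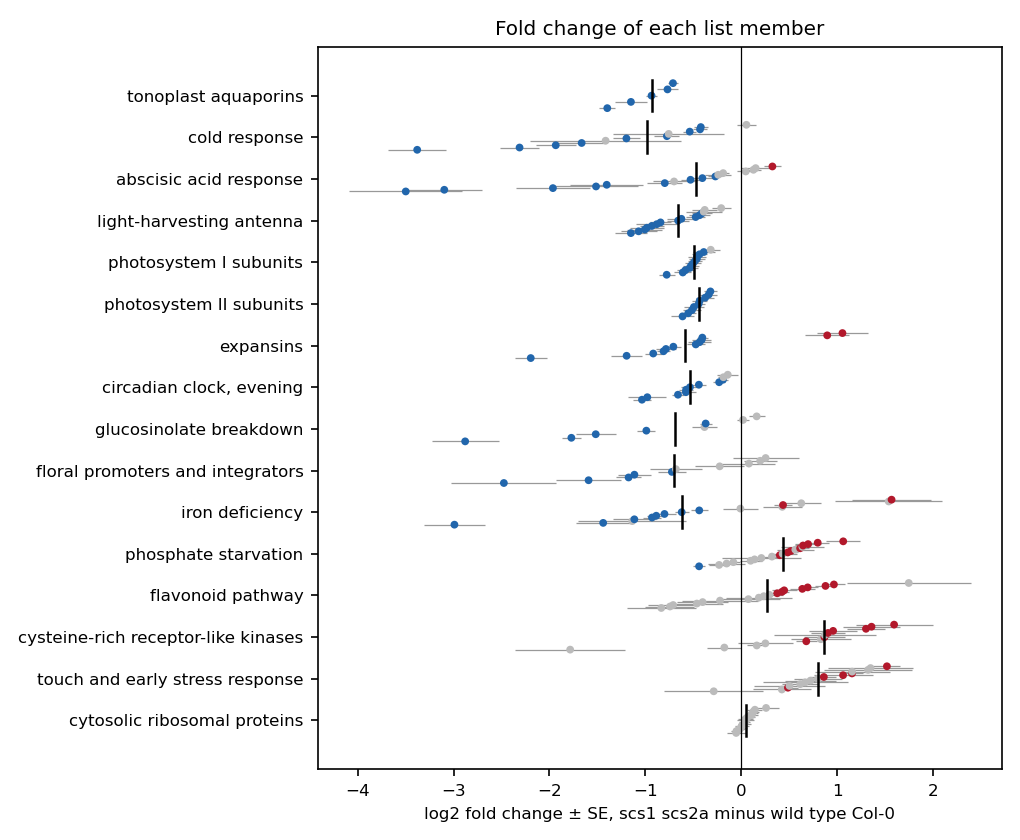
Log2 differences of scs1 scs2a minus wild type Col-0 (horizontal axis) for the single members of the main gene lists, 1 point per gene with its standard error. Red points were called higher, blue points lower and grey points not called, and black bars are the list medians. Members of the light-reaction, cold, evening clock, expansin and aquaporin lists lie mostly left of 0, and receptor-like kinases mostly right of it.

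Most salicylic acid genes were not called, while cysteine-rich receptor-like kinases were higher or uncalled. Of 22 salicylic acid and defence genes 1 was higher and 2 were lower (median 0.18), which is near the share of all loci. DMR6, which inactivates salicylic acid, had 259.7 and 238 in scs1 scs2a and 417 and 413 in wild type (log2 fold change -0.74 ± 0.10, adjusted p = 0.00203). The salicylic acid receptor gene NPR4 had 509 and 545 in scs1 scs2a and 746 and 736 in wild type (log2 fold change -0.49 ± 0.09, adjusted p = 0.00677). The NPR4 call ended when wild type replicate 1 (adjusted p = 0.0796) or wild type replicate 2 (0.0711) was left out. The transcription factor gene SARD1 was the higher one (log2 fold change 0.46 ± 0.12, adjusted p = 0.0271). The SARD1 call ended when scs1 scs2a replicate 1 (adjusted p = 0.0964), scs1 scs2a replicate 2 (0.128), wild type replicate 1 (0.134) or wild type replicate 2 (0.118) was left out. Of 13 cysteine-rich receptor-like kinases, a family that includes many pathogen-induced members, 7 were higher and 0 lower (median 0.87), beside 9.05% of all loci. CRK41 had 217 and 319.8 in scs1 scs2a and 122 and 92.1 in wild type (log2 fold change 1.30 ± 0.20, adjusted p = 0.00343), with a call that ended when wild type replicate 2 (adjusted p = 0.0575) was left out. CRK14 had 109 and 114 in scs1 scs2a and 51.4 and 68 in wild type (log2 fold change 0.91 ± 0.18, adjusted p = 0.0104), with a call that ended when scs1 scs2a replicate 2 (adjusted p = 0.079) or wild type replicate 1 (0.0692) was left out. The groups did not overlap in these genes. The list had 1 kinase called higher without wild type replicate 1 and 1 without wild type replicate 2, while 3 were called without scs1 scs2a replicate 2 and 4 without scs1 scs2a replicate 1.

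Jasmonate genes were called in both directions. Of 12 response genes 4 were higher and 2 lower (median -0.07), with 1 higher without wild type replicate 1 and 2 without wild type replicate 2. Of the higher genes 2, PDF1.2 and PDF1.2b, entered through the scs1 scs2a libraries alone, so some difference was set by the rule. Without them 2 response genes were higher. CORI3, a cystine lyase induced by coronatine, had 1782 and 1415 in scs1 scs2a and 5095 and 5601 in wild type (log2 fold change -1.75 ± 0.11, adjusted p = 0.000156). VSP2, a vegetative storage protein, had 605 and 319.8 in scs1 scs2a and 1468 and 2240.5 in wild type (log2 fold change -2.04 ± 0.47, adjusted p = 0.0187), and its close relative VSP1 671 and 667 in scs1 scs2a and 264 and 353 in wild type (log2 fold change 1.13 ± 0.19, adjusted p = 0.00481). They share long stretches of sequence, and their single values are uncertain. The VSP2 call ended when scs1 scs2a replicate 2 (adjusted p = 0.143), wild type replicate 1 (0.107) or wild type replicate 2 (0.179) was left out and the VSP1 call when wild type replicate 1 (adjusted p = 0.0781) was left out. In the ethylene and jasmonate branch, the factor gene ORA59 had 97.6 and 106 in scs1 scs2a and 60.8 and 53.4 in wild type (log2 fold change 0.82 ± 0.17, adjusted p = 0.011). Its target PDF1.2 had 51.5 and 79.3 in scs1 scs2a and 7.59 and 6.42 in wild type (log2 fold change 3.02 ± 0.42, adjusted p = 0.00254). The ORA59 call ended when scs1 scs2a replicate 2 (adjusted p = 0.0851), wild type replicate 1 (0.0626) or wild type replicate 2 (0.0904) was left out and the PDF1.2 call when wild type replicate 1 (adjusted p = 0.0501) or wild type replicate 2 (0.0508) was left out. In jasmonate synthesis 1 of 9 genes was higher and 2 were lower, with 0 or 1 higher and 0 to 2 lower with 1 library left out. LOX2, the leaf lipoxygenase, had 13411 and 10401 in scs1 scs2a and 20240.4 and 23087 in wild type (log2 fold change -0.87 ± 0.14, adjusted p = 0.00482; the call ended when wild type replicate 1 (adjusted p = 0.0583) or wild type replicate 2 (0.0831) was left out). HPL1, a hydroperoxide lyase gene, had 139 and 76.6 in scs1 scs2a and 416 and 483 in wild type (log2 fold change -2.10 ± 0.30, adjusted p = 0.00269). The HPL1 call ended when wild type replicate 1 or wild type replicate 2 was left out.

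The defensin promoters are shown because both hold AGCCGCC, the GCC-box that ORA59 and its relatives are known to bind; capitals mark it on either strand in the 250 bases before the start.
PDF1.2 promoter, - strand, chr5:17907639-17907888: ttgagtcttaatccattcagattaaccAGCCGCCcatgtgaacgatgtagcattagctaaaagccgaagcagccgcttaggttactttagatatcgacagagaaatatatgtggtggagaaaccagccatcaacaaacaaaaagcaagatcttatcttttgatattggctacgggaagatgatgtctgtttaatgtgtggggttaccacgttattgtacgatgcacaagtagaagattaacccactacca
PDF1.2b promoter, + strand, chr2:11088873-11089122: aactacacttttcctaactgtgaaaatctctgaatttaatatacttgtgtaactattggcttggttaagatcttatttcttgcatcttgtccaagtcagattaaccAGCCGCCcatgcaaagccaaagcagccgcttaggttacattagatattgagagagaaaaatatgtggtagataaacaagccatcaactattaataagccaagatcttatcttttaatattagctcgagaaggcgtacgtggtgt
The box starts 223 bases before the start of PDF1.2 and 144 before that of PDF1.2b. It was found in 0.633% of all 21641 promoters and in 2 of the 12 jasmonate response genes. PDF1.2 and PDF1.2b belong to a family of near-identical defensin genes, and the authors' counting could split reads among them.

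A few ethylene synthesis genes were called, in both directions. ACS7, an ACC synthase, had 97.3 and 159 in scs1 scs2a and 23.1 and 35 in wild type (log2 fold change 2.09 ± 0.27, adjusted p = 0.0019), with no overlap. The oxidase ACO1 had 276 and 300.2 in scs1 scs2a and 582 and 677 in wild type (log2 fold change -1.12 ± 0.22, adjusted p = 0.00923; the call ended when scs1 scs2a replicate 1 (adjusted p = 0.0581), scs1 scs2a replicate 2 (0.0599), wild type replicate 1 (0.0833) or wild type replicate 2 (0.118) was left out). EFE, also called ACO4, had 5583 and 6009 in scs1 scs2a and 7840.1 and 7254 in wild type (log2 fold change -0.38 ± 0.06, adjusted p = 0.00408; the call ended when wild type replicate 1 (adjusted p = 0.0563) was left out). Of 14 listed ethylene genes 2 were higher and 2 lower, beside 9.05% and 13.8% of all loci. With 1 library left out, 1 or 2 were higher and 0 or 1 lower.

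Glucosinolates, the sulfur compounds that give Brassicaceae their chemical defence, showed a contrast between classes. In the aliphatic pathway 3 of 17 genes were higher and 7 lower (median -0.21), in the indolic pathway 5 of 10 were higher and 1 lower (median 0.25), and of 8 breakdown genes 5 were lower and 0 higher (median -0.69). MYB28, the main activator of the aliphatic pathway, had 1746 and 1639 in scs1 scs2a and 2653 and 2393 in wild type (log2 fold change -0.57 ± 0.07, adjusted p = 0.00157). Its target MAM1, which elongates methionine, had 6615 and 5753 in scs1 scs2a and 8566 and 9432 in wild type (log2 fold change -0.54 ± 0.08, adjusted p = 0.00268). In the indolic pathway, CYP83B1 had 5957 and 5822 in scs1 scs2a and 3800.2 and 4237 in wild type (log2 fold change 0.55 ± 0.07, adjusted p = 0.00193). The sulfotransferase SOT16 had 2102 and 2183 in scs1 scs2a and 1627 and 1509.7 in wild type (log2 fold change 0.45 ± 0.06, adjusted p = 0.00222). None of these 4 genes had overlapping groups, and their calls held with any 1 library left out. The 2 myrosinases, which release the toxic products, were lower. TGG1 had 31558 and 27898 in scs1 scs2a and 60818 and 57018 in wild type (log2 fold change -0.99 ± 0.09, adjusted p = 0.000618). TGG2 had 5452 and 5039 in scs1 scs2a and 18824 and 17011 in wild type (log2 fold change -1.77 ± 0.10, adjusted p = 0.00012). MBP1, which binds them, had 33.5 and 31.4 in scs1 scs2a and 177 and 339.9 in wild type (log2 fold change -2.88 ± 0.35, adjusted p = 0.00157). Aliphatic genes called lower numbered 6 without scs1 scs2a replicate 1, 3 without scs1 scs2a replicate 2 and 2 without 1 of the wild type libraries, and 0 or 1 were called higher. Indolic genes called higher numbered 4 without scs1 scs2a replicate 1 and 2 without each of the other libraries, and 4 or 5 breakdown genes were called lower in each case.

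Flavonoid genes were higher or uncalled. Of 18 listed genes 7 were higher and 0 lower (median 0.27), with 3 higher without wild type replicate 1, 4 without scs1 scs2a replicate 2 and 5 without 1 of the other libraries. TT4, the chalcone synthase that opens the pathway, had 12079 and 12542 in scs1 scs2a and 6779 and 8537 in wild type (log2 fold change 0.69 ± 0.10, adjusted p = 0.00342). F3H, a hydroxylase of its middle part, had 2702 and 2823 in scs1 scs2a and 1235 and 1612 in wild type (log2 fold change 0.97 ± 0.12, adjusted p = 0.00163). FLS1, the flavonol synthase, had 3469 and 3812 in scs1 scs2a and 1799 and 2169 in wild type (log2 fold change 0.88 ± 0.11, adjusted p = 0.00177). The wild type libraries differed from each other more than the mutant libraries in these genes, and both lay below both of them. MYB12, a flavonol regulator, had 263 and 281 in scs1 scs2a and 180.3 and 169 in wild type (log2 fold change 0.64 ± 0.13, adjusted p = 0.0127; the call ended when scs1 scs2a replicate 2 (adjusted p = 0.0976), wild type replicate 1 (0.0844) or wild type replicate 2 (0.11) was left out).

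Iron genes were mostly lower. Of 15 listed iron-deficiency genes 8 were lower and 2 higher (median -0.62), with 5 lower without wild type replicate 1, 4 without wild type replicate 2 and 7 without 1 of the scs1 scs2a libraries. BHLH100, a transcription factor induced when iron is short, had 27.6 and 48.8 in scs1 scs2a and 250.1 and 358 in wild type (log2 fold change -2.99 ± 0.32, adjusted p = 0.00102). Its relative bHLH39 had 41.9 and 73.7 in scs1 scs2a and 142 and 164 in wild type (log2 fold change -1.44 ± 0.28, adjusted p = 0.00963; the call ended when wild type replicate 1 (adjusted p = 0.0812) or wild type replicate 2 (0.106) was left out). BTS, a ubiquitin ligase that restrains the response, had 2559 and 2188 in scs1 scs2a and 4321 and 4704 in wild type (log2 fold change -0.93 ± 0.09, adjusted p = 0.000748). ZIF1, a vacuolar transporter, had 1065 and 901 in scs1 scs2a and 1753 and 1869 in wild type (log2 fold change -0.89 ± 0.10, adjusted p = 0.00114). The groups were separate in all 4. The root iron transporter IRT1 went the other way, with 1016 and 1123 in scs1 scs2a and 209.8 and 615 in wild type (log2 fold change 1.57 ± 0.41, adjusted p = 0.0314), but the wild type libraries lay far apart and the call ended when scs1 scs2a replicate 1 (adjusted p = 0.105), scs1 scs2a replicate 2 (0.163) or wild type replicate 1 (0.128) was left out. The iron store FER1 had 3239 and 3215 in scs1 scs2a and 1585 and 1584 in wild type (log2 fold change 1.03 ± 0.06, adjusted p = 0.000144). NAS3, which makes the metal chelator nicotianamine, had 456 and 483 in scs1 scs2a and 218 and 132 in wild type (log2 fold change 1.46 ± 0.21, adjusted p = 0.003); they were the only 2 of 7 ferritin and nicotianamine synthase genes called.

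Phosphate-starvation genes leaned higher. Of 19 listed genes 8 were higher and 1 lower (median 0.43), with 10 higher without scs1 scs2a replicate 1 and 4 without each of the other 3 libraries. SRG3, a glycerophosphodiester phosphodiesterase, had 2739 and 3233 in scs1 scs2a and 1991 and 1816 in wild type (log2 fold change 0.65 ± 0.09, adjusted p = 0.00207). SQD1, which makes sulfolipid in place of phospholipid, had 5976 and 6797 in scs1 scs2a and 4480.1 and 4418 in wild type (log2 fold change 0.52 ± 0.07, adjusted p = 0.00181). The uptake transporter gene PHT1;1 had 2157 and 2037 in scs1 scs2a and 1109.7 and 1307 in wild type (log2 fold change 0.80 ± 0.12, adjusted p = 0.00358), a call that ended when wild type replicate 1 (adjusted p = 0.0693) was left out. In nitrogen use, 5 of 13 genes were higher and 1 was lower (median 0.16), with 4 higher without scs1 scs2a replicate 1, 3 without scs1 scs2a replicate 2 or wild type replicate 1, and 2 without wild type replicate 2. The lower one was NRT2:1, the main high-affinity nitrate transporter, with 104 and 76.9 in scs1 scs2a and 234 and 327 in wild type (log2 fold change -1.62 ± 0.19, adjusted p = 0.00138). Higher were GSR 1, a cytosolic glutamine synthetase, with 3641 and 3868 in scs1 scs2a and 2146 and 2244 in wild type (log2 fold change 0.77 ± 0.09, adjusted p = 0.00118), and LBD39, a repressor of nitrate genes, with 1530.5 and 1589 in scs1 scs2a and 869 and 969 in wild type (log2 fold change 0.76 ± 0.09, adjusted p = 0.00134). The next gene, NRT2.5, entered through the scs1 scs2a libraries alone. NRT2.5, which is outside that list, had 35.6 and 15 in scs1 scs2a and 1.13 and 3.17 in wild type, a ratio of reads of 11.6 (95% interval 4.29 to 44.3) (adjusted p = 0.018); the call ended when scs1 scs2a replicate 1 (adjusted p = 0.107), scs1 scs2a replicate 2 (0.0506), wild type replicate 1 (0.151) or wild type replicate 2 (0.0805) was left out. Of 15 genes of energy starvation and branched-chain amino acid breakdown, DIN2 (above) and DIN10, of the raffinose synthase family, were the 2 called, DIN10 with 4567 and 5134 in scs1 scs2a and 2645 and 2208 in wild type (log2 fold change 1.002 ± 0.14, adjusted p = 0.00241; the call ended when wild type replicate 2 (adjusted p = 0.0546) was left out). Of 7 beta-amylase genes BMY3 (log2 fold change 0.48 ± 0.06, adjusted p = 0.0021) and CT-BMY (log2 fold change 0.36 ± 0.05, adjusted p = 0.00265) were higher and BAM2 (log2 fold change -0.23 ± 0.05, adjusted p = 0.0139) was lower, the BAM2 call ending when scs1 scs2a replicate 1 (adjusted p = 0.0511), scs1 scs2a replicate 2 (0.0881), wild type replicate 1 (0.0711) or wild type replicate 2 (0.0691) was left out.

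Evening clock genes were lower, and morning genes were called in both directions. The times of day of harvest were not given in the sources used here. Of 8 morning-phased genes 2 were higher and 2 lower (median -0.11), and of 11 evening-phased genes 9 were lower and 0 higher (median -0.53), with 4 lower without scs1 scs2a replicate 2 or wild type replicate 1 and 6 without 1 of the other libraries. LHY, a dawn repressor, had 157 and 145 in scs1 scs2a and 51.1 and 52.3 in wild type (log2 fold change 1.53 ± 0.12, adjusted p = 0.000373). RVE8, an activator of evening genes, had 265 and 254 in scs1 scs2a and 122 and 139.5 in wild type (log2 fold change 0.99 ± 0.11, adjusted p = 0.00123). FKF1, a blue-light receptor that acts in day-length sensing, had 355 and 339 in scs1 scs2a and 738 and 687 in wild type (log2 fold change -1.03 ± 0.09, adjusted p = 0.000489). TOC1, an evening repressor of LHY, had 1774 and 1653 in scs1 scs2a and 2678 and 2428 in wild type (log2 fold change -0.57 ± 0.07, adjusted p = 0.00169). PRR3 had 647 and 657 in scs1 scs2a and 1053 and 1008 in wild type (log2 fold change -0.66 ± 0.06, adjusted p = 0.000608). In these 5 genes the groups did not overlap and the calls held with any 1 library left out. GI had 204 and 219 in scs1 scs2a and 537 and 325 in wild type (log2 fold change -0.98 ± 0.20, adjusted p = 0.0111; the call ended when scs1 scs2a replicate 1 (adjusted p = 0.0655) or scs1 scs2a replicate 2 (0.0671) was left out).

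The promoters of 2 evening genes are shown because they hold AAATATCT, the letters of the evening element, which LHY and RVE8 are known to bind; capitals mark it on either strand in the 250 bases before the start.
FKF1 promoter, + strand, chr1:25508389-25508638: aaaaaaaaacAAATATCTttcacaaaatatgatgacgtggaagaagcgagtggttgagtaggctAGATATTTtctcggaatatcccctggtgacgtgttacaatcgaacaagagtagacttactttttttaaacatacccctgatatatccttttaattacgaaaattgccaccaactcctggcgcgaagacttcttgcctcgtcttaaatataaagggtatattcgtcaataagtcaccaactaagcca
TOC1 promoter, + strand, chr5:24674713-24674962: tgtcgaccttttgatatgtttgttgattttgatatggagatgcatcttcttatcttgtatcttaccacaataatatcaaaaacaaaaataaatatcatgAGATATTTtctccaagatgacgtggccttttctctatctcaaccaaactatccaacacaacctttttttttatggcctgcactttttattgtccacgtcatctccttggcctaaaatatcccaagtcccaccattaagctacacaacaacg
FKF1 has 2 matches, 240 and 186 bases before the start, and TOC1 has 1, at 151 bases. The element was found in 7 of the 11 evening genes, against 4.77% of all 21641 promoters, 6.78% of the genes called lower and 4.08% of those called higher.

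Genes that promote flowering were lower or uncalled. Of 10 listed promoters and integrators 5 were lower and 0 higher (median -0.70), with 4 lower without scs1 scs2a replicate 1, 2 without scs1 scs2a replicate 2 and 1 without 1 of the wild type libraries. AGL20, better known as SOC1, had 274 and 208 in scs1 scs2a and 521 and 561 in wild type (log2 fold change -1.17 ± 0.13, adjusted p = 0.00109). AGL24, its partner, had 64.1 and 67.7 in scs1 scs2a and 140.3 and 147 in wild type (log2 fold change -1.11 ± 0.18, adjusted p = 0.00406; the call ended when wild type replicate 1 (adjusted p = 0.0514) or wild type replicate 2 (0.0515) was left out). Among 12 floral repressors 1 was higher and 2 were lower, with 0 or 1 in either direction with 1 library left out. FLC, the vernalisation repressor, had 57.4 and 61 in scs1 scs2a and 32.6 and 29.9 in wild type (log2 fold change 0.90 ± 0.28, adjusted p = 0.0533), with separate groups but without a call. TEM1, a repressor of FT, had 888 and 1278 in scs1 scs2a and 479 and 629.6 in wild type (log2 fold change 0.95 ± 0.20, adjusted p = 0.0115; the call ended when scs1 scs2a replicate 2 (adjusted p = 0.0893), wild type replicate 1 (0.139) or wild type replicate 2 (0.0626) was left out). SVP had 1112 and 997 in scs1 scs2a and 1480.5 and 1414 in wild type (log2 fold change -0.46 ± 0.11, adjusted p = 0.0242; the call ended when scs1 scs2a replicate 1 (adjusted p = 0.0533), scs1 scs2a replicate 2 (0.163), wild type replicate 1 (0.175) or wild type replicate 2 (0.131) was left out).

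Most expansins were lower, while most cell division genes were not called. Of 17 cell division genes 2 were lower and 0 higher (median 0.04), and both were D-type cyclins, which drive cells into the cycle. CYCD1;1 had 222 and 179.7 in scs1 scs2a and 719 and 661 in wild type (log2 fold change -1.78 ± 0.14, adjusted p = 0.000373). CYCD3;1 had 394 and 389 in scs1 scs2a and 591 and 580.4 in wild type (log2 fold change -0.58 ± 0.07, adjusted p = 0.00164). Both calls held with any 1 library left out. Of 12 expansins, which loosen walls, 10 were lower and 2 higher (median -0.59), with 7 to 10 lower when 1 library was left out. EXPA8 had 615 and 460.4 in scs1 scs2a and 2578 and 2308 in wild type (log2 fold change -2.19 ± 0.17, adjusted p = 0.000357). EXP3 had 1204 and 1025 in scs1 scs2a and 2138 and 2059 in wild type (log2 fold change -0.92 ± 0.09, adjusted p = 0.000708). The 2 higher ones are root hair genes, EXPA7 with 188 and 179.97 in scs1 scs2a and 90.5 and 106 in wild type (log2 fold change 0.90 ± 0.23, adjusted p = 0.0275; the call ended when scs1 scs2a replicate 1 (adjusted p = 0.115), scs1 scs2a replicate 2 (0.124), wild type replicate 1 (0.195) or wild type replicate 2 (0.121) was left out) and EXPA18 with 191 and 237 in scs1 scs2a and 85.4 and 121 in wild type (log2 fold change 1.06 ± 0.27, adjusted p = 0.0272; the call ended when scs1 scs2a replicate 1 (adjusted p = 0.0682), scs1 scs2a replicate 2 (0.173), wild type replicate 1 (0.215) or wild type replicate 2 (0.089) was left out). The root hair gene LRX1 was higher with them, as given above, but it was the only 1 of 14 root markers called higher, and 5 were lower. None of the 14 listed trichome and root hair fate genes was called. The part of root hair tissue in this was not tested. Of 12 XTH genes, whose enzymes cut and rejoin wall xyloglucan, 5 were higher and 2 lower (median 0.22). Without scs1 scs2a replicate 1, 3 XTH genes were called higher, and without each of the other libraries 2, and none was called lower in these 4 fits. XTH7 had 7935 and 8926 in scs1 scs2a and 3501 and 3649 in wild type (log2 fold change 1.24 ± 0.06, adjusted p = 0.000103). XTH9 had 4220.1 and 4188 in scs1 scs2a and 2942 and 2832 in wild type (log2 fold change 0.54 ± 0.06, adjusted p = 0.00081).

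All 5 listed tonoplast aquaporins, the water channels of the vacuole, were lower (median -0.93), with 3 lower without wild type replicate 1 and 5 without each of the other libraries. DELTA-TIP had 3784 and 3608 in scs1 scs2a and 10428 and 9075 in wild type (log2 fold change -1.40 ± 0.08, adjusted p = 0.000131). TIP2, which encodes TIP1;2, had 11158 and 10688 in scs1 scs2a and 21529.7 and 20236 in wild type (log2 fold change -0.93 ± 0.06, adjusted p = 0.000156). GAMMA-TIP had 8855 and 8478 in scs1 scs2a and 14373 and 14001 in wild type (log2 fold change -0.71 ± 0.05, adjusted p = 0.000293). The libraries of a group lay close together and the groups far apart. TIP2;3 (log2 fold change -1.15 ± 0.17, adjusted p = 0.00324; the call ended when wild type replicate 1 (adjusted p = 0.053) was left out) and TIP2;2 (log2 fold change -0.77 ± 0.11, adjusted p = 0.00313; the call ended when wild type replicate 1 (adjusted p = 0.0673) was left out) were the other members.

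Gibberellin and brassinosteroid genes were lower or uncalled, with 6 of 15 lower and 0 higher (median -0.47). GAI and RGA1 encode DELLA proteins, the repressors that gibberellin removes. GAI had 872 and 848 in scs1 scs2a and 1743 and 1624 in wild type (log2 fold change -0.97 ± 0.09, adjusted p = 0.000712). RGA1 had 1528 and 1475 in scs1 scs2a and 2029.97 and 2123 in wild type (log2 fold change -0.47 ± 0.07, adjusted p = 0.00269). CPD, an enzyme of brassinosteroid synthesis, had 2178 and 1949 in scs1 scs2a and 3032 and 2924 in wild type (log2 fold change -0.53 ± 0.06, adjusted p = 0.00129). Of 17 auxin genes 1 was higher and 4 lower, with 1 lower without wild type replicate 1 and 2 without each of the other libraries, led among the abundant ones by the repressor gene IAA7, with 2129 and 1941 in scs1 scs2a and 3364 and 3275 in wild type (log2 fold change -0.71 ± 0.06, adjusted p = 0.000563). Of 10 cytokinin genes 1 was higher and 4 lower, with 1 lower when any 1 library was left out. ARR4, a negative regulator of the pathway, had 1083 and 921 in scs1 scs2a and 1687 and 1842 in wild type (log2 fold change -0.82 ± 0.09, adjusted p = 0.0011). IPT3, an enzyme of cytokinin synthesis, had 336 and 347 in scs1 scs2a and 171 and 195 in wild type (log2 fold change 0.90 ± 0.15, adjusted p = 0.00506; the call ended when wild type replicate 1 (adjusted p = 0.079) or wild type replicate 2 (0.0511) was left out).

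Genes of touch and early stress were higher or uncalled. Of 15 listed genes 5 were higher and 0 lower (median 0.80); with the replicate number as a block, 12 were higher. TCH3, a calmodulin-like protein gene, had 1463 and 2015 in scs1 scs2a and 564 and 633 in wild type (log2 fold change 1.52 ± 0.14, adjusted p = 0.000605). The transcription factor gene WRKY18 had 237 and 297 in scs1 scs2a and 116 and 120.5 in wild type (log2 fold change 1.16 ± 0.11, adjusted p = 0.000682). Without wild type replicate 1, 2 genes of the list were called higher, and without each of the other libraries 3 were. Of 11 heat shock genes 2 were higher and 1 lower, with 0 called without 1 of the wild type libraries, and of 10 cuticular wax genes 2 were higher (1 or 2 with 1 library left out) and 0 lower. KCS6, which elongates the fatty acids of wax, had 10454 and 11794 in scs1 scs2a and 6416 and 6268 in wild type (log2 fold change 0.81 ± 0.06, adjusted p = 0.000418). Among 10 senescence genes 2 were higher and 2 lower (1 higher and 1 or 2 lower with 1 library left out), with SAG21 at 5022 and 6224 in scs1 scs2a and 2992 and 2984 in wild type (log2 fold change 0.90 ± 0.10, adjusted p = 0.000994). With limma no call was made among 14 trichome and root hair fate genes (median 0.11), where 1 was higher and 2 were lower at an unadjusted p under 0.05, or among 15 cytosolic ribosomal protein genes (median 0.05), where the unadjusted counts were 0 and 0. Beside the lists of this paragraph, 9.05% of all loci were called higher and 13.8% lower.

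The double mutant was then set against the other mutants directly. These comparisons share the scs1 scs2a libraries with the one against wild type, so no overlap between them is given as a result. Against hag1, 3770 of the 21642 loci were higher in scs1 scs2a (17.4%) and 3546 lower (16.4%), with 698 and 621 at 2-fold or more. Against ada2b, 3597 were higher (16.6%) and 3754 lower (17.3%), with 1318 and 173 at 2-fold or more. Which direction held more loci depended on the processing. Against ada2b, 3873 were higher and 2743 lower after median-ratio scaling, and 4018 and 2148 after upper-quartile scaling. Fitted on the 2 groups alone, 2038 were higher and 1860 lower than ada2b, and 1931 were higher and 2092 lower than hag1. Leaving out scs1 scs2a replicate 1 moved the counts against hag1 to 2062 and 2089 and those against ada2b to 2119 and 1756, and leaving out scs1 scs2a replicate 2 moved them to 2370 and 2279 and to 2278 and 1744. The count lower than hag1 was 2324 without hag1 replicate 2. Without ada2b replicate 1, 2385 were higher and 1879 lower than ada2b, and without ada2b replicate 2, 1700 were lower.

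**Figure D5:**
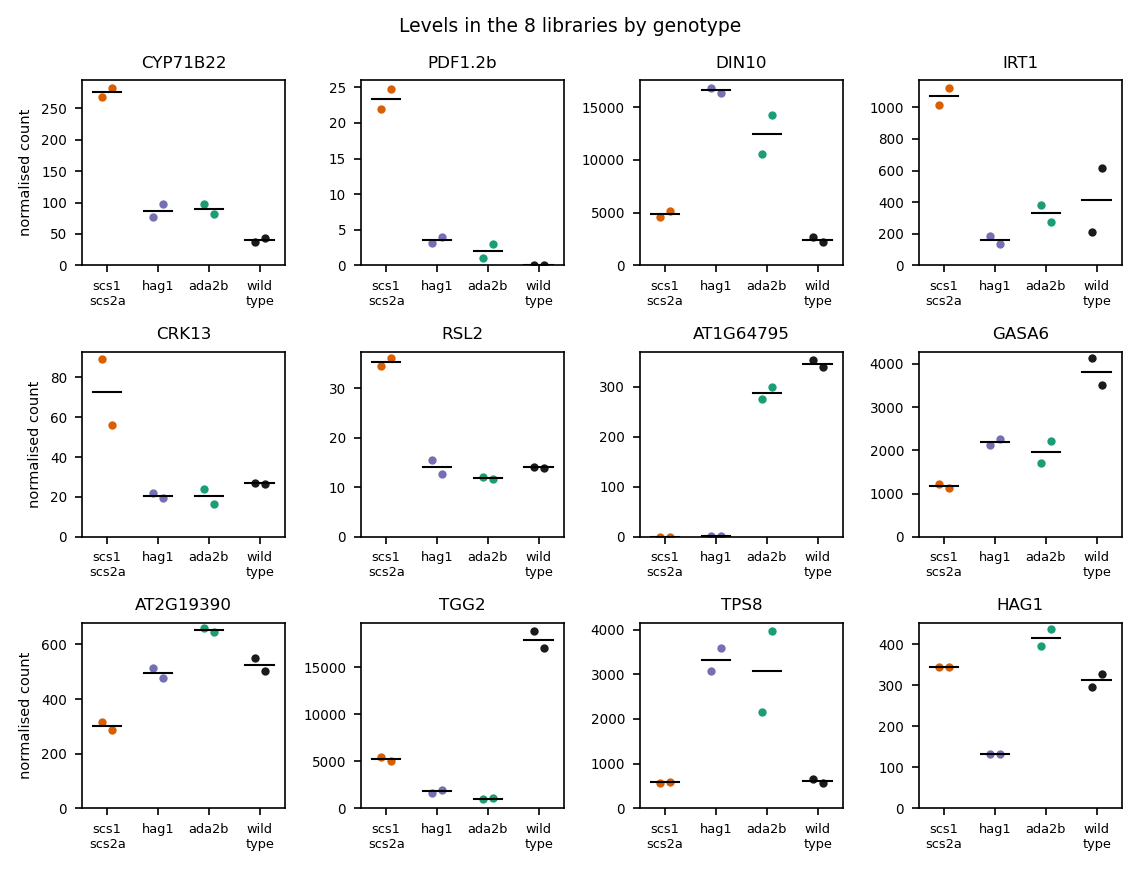
Normalised counts (linear axis from 0) in scs1 scs2a, hag1, ada2b and wild type Col-0, from left to right, for 12 genes, with 1 point per library and a bar at the mean of the 2. In CYP71B22 the scs1 scs2a points lie above those of every other genotype, and in TPS8 the hag1 and ada2b points lie above those of scs1 scs2a and wild type.

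Most listed energy and phosphate genes were lower in scs1 scs2a than in hag1. Of all loci, 17.4% were higher and 16.4% lower than in hag1, and 16.6% and 17.3% than in ada2b. Those shares are the background for the list counts here and below. Of 12 photosystem I genes 1 was higher and 0 lower than in hag1, and 0 were called against ada2b. Their summed level was 179550 and 192081 in hag1 and 183010 and 185870 in ada2b. It was 213036 and 191393 in scs1 scs2a and 303361 and 276641 in wild type. Of 15 antenna genes 0 were higher and 5 lower than in hag1, and 3 higher and 1 lower than in ada2b. The class II trehalose phosphate synthase TPS8 had 563 and 599 in scs1 scs2a, 3063 and 3592 in hag1, 2150.2 and 3977 in ada2b, against 652 and 556 in wild type, a log2 difference of -2.51 ± 0.24 from hag1 (adjusted p = 0.000243) and -2.33 ± 0.24 from ada2b (adjusted p = 0.000374). Of 5 such genes 4 were lower in scs1 scs2a than in hag1 and 4 lower than in ada2b, with 4 in each comparison when any 1 library was left out, while 1 was called lower than in wild type and 0 with a library left out. Of 15 energy-starvation genes 0 were higher and 10 lower than in hag1, and 2 were higher and 10 lower than in ada2b, where 0 or 1 were called higher and 8 to 10 lower with 1 library left out. DIN10 had 16832 and 16336 in hag1 and 10568 and 14283 in ada2b, beside the values above (log2 fold change -1.78 ± 0.14, adjusted p = 0.000119 against hag1, and log2 fold change -1.34 ± 0.14, adjusted p = 0.000406 against ada2b). Of 19 phosphate-starvation genes 17 were lower in scs1 scs2a than in hag1 and 2 higher, and 15 to 17 were called lower with 1 library left out. Against ada2b, 4 were higher and 5 lower, with 1 lower without ada2b replicate 2. SRG3 had 7619 and 7619 in hag1 and 3737 and 4092 in ada2b (log2 fold change -1.36 ± 0.09, adjusted p = 4.97e-05 against hag1). BAM5, a beta-amylase, had 319 and 446 in scs1 scs2a, 5636 and 3557 in hag1, 242 and 229.6 in ada2b, against 148 and 269 in wild type (log2 fold change -3.57 ± 0.29, adjusted p = 0.000142 against hag1). The beta-glucosidase BGLU28 had 46.6 and 88.1 in scs1 scs2a, 666 and 828 in hag1, 212 and 259 in ada2b, against 126 and 121 in wild type (log2 fold change -3.51 ± 0.26, adjusted p = 9.37e-05 against hag1). The lipid transfer protein gene LTP2 had 491 and 573 in scs1 scs2a, 7739.7 and 5458 in hag1, 1441 and 1698 in ada2b, against 871 and 982 in wild type (log2 fold change -3.61 ± 0.16, adjusted p = 1.84e-05 against hag1). In BAM5, BGLU28 and LTP2 both hag1 libraries lay above all 6 others.

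Aliphatic glucosinolate and cell division genes were higher in scs1 scs2a than in ada2b or uncalled. All 17 aliphatic glucosinolate genes were higher in scs1 scs2a than in ada2b, and 17 were called higher with any 1 library of the 2 groups left out, while 11 were higher than in hag1. MAM1 had 3562 and 3778 in hag1 and 2516 and 2558 in ada2b (log2 fold change 1.28 ± 0.08, adjusted p = 4.7e-05 against ada2b), below both groups given above. Of 17 cell division genes 11 were higher than in ada2b and 0 lower, with 8 or 9 higher when 1 library was left out. The cytokinesis syntaxin SYP111 had 563 and 597 in scs1 scs2a, 387 and 406 in ada2b and 569 and 583 in wild type (log2 fold change 0.55 ± 0.06, adjusted p = 0.000747 against ada2b). All 5 tonoplast aquaporins were higher than in ada2b, and CORI3, with 174 and 154 in ada2b, was higher too (log2 fold change 3.27 ± 0.11, adjusted p = 5.92e-06). FLC had 236 and 261 in ada2b and 30.1 and 15.6 in hag1, so that the double mutant lay below ada2b (log2 fold change -2.05 ± 0.28, adjusted p = 0.00143) and above hag1 (log2 fold change 1.40 ± 0.28, adjusted p = 0.0066). Its relative MAF5 had 64.3 and 53.2 in scs1 scs2a, 3.13 and 2.94 in hag1, 94.1 and 57.2 in ada2b, against 44.4 and 35.3 in wild type (log2 fold change 3.88 ± 0.29, adjusted p = 0.0001 against hag1). In iron genes, BHLH100 had 6.29 and 8.83 in hag1 and 283 and 197 in ada2b, and the double mutant lay between them (log2 fold change 2.16 ± 0.32, adjusted p = 0.00192 against hag1, and log2 fold change -2.65 ± 0.32, adjusted p = 0.000836 against ada2b). Of the 15 iron genes 12 were higher than in hag1 and 0 lower, and 5 were higher and 6 lower than in ada2b. With 1 library left out, 8 to 11 iron genes were called higher than in hag1 and 2 to 4 higher than in ada2b. Fitted on the 2 groups compared alone, the call of FLC against hag1 was lost (adjusted p = 0.0770).

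The following genes were named for being called in the same direction against each of the other genotypes, so their shared direction is a description set by that rule. CYP71B22 had 76.3 and 98.1 in hag1 and 98.1 and 81.7 in ada2b (log2 fold change 1.66 ± 0.18, adjusted p = 0.000421 against hag1, and log2 fold change 1.61 ± 0.18, adjusted p = 0.000539 against ada2b). PDF1.2b had 3.14 and 3.92 in hag1 and 1 and 2.93 in ada2b (log2 fold change 2.43 ± 0.43, adjusted p = 0.00411 against hag1, and log2 fold change 3.12 ± 0.43, adjusted p = 0.00157 against ada2b). GASA6, a gibberellin-responsive gene, had 1220.5 and 1119.96 in scs1 scs2a, 2127 and 2259.7 in hag1, 1703 and 2209 in ada2b, against 4138 and 3511 in wild type (log2 fold change -1.70 ± 0.12, adjusted p = 0.00029 against wild type, log2 fold change -0.91 ± 0.12, adjusted p = 0.00118 against hag1, and log2 fold change -0.73 ± 0.12, adjusted p = 0.00368 against ada2b). The call of GASA6 against ada2b was lost when the 2 groups were fitted alone (adjusted p = 0.0596). Its annotated span overlaps that of AT1G74675, annotated as an uncharacterised protein, which had 156 and 169 in scs1 scs2a, 328 and 281 in hag1, 231 and 304 in ada2b, against 607 and 499 in wild type (log2 fold change -1.76 ± 0.15, adjusted p = 0.000472 against wild type). How reads of the overlap were counted is not known. AT2G19390, annotated as a serine/arginine repetitive matrix protein, had 317 and 287 in scs1 scs2a, 513 and 478 in hag1, 659.7 and 647 in ada2b, against 549 and 503 in wild type (log2 fold change -0.80 ± 0.08, adjusted p = 0.000757 against wild type, log2 fold change -0.71 ± 0.08, adjusted p = 0.000505 against hag1, and log2 fold change -1.11 ± 0.08, adjusted p = 8.66e-05 against ada2b). The root hair regulator RSL2 had 34.5 and 36.2 in scs1 scs2a, 15.6 and 12.7 in hag1, 12 and 11.7 in ada2b, against 14.1 and 13.9 in wild type (log2 fold change 1.28 ± 0.26, adjusted p = 0.0106 against wild type), a call that ended when scs1 scs2a replicate 2 (adjusted p = 0.0745), wild type replicate 1 (0.0584) or wild type replicate 2 (0.0566) was left out. CRK13, another cysteine-rich receptor-like kinase, had 89.4 and 55.9 in scs1 scs2a, 21.9 and 19.6 in hag1, 24 and 16.5 in ada2b, against 27.2 and 26.7 in wild type (log2 fold change 1.36 ± 0.29, adjusted p = 0.0143 against wild type). The CRK13 call ended when scs1 scs2a replicate 1 (adjusted p = 0.0884), wild type replicate 1 (0.0995) or wild type replicate 2 (0.102) was left out. In each of these genes the scs1 scs2a libraries were the 2 highest or the 2 lowest of the 8.

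Short motifs were also counted over the promoters of all genes called. CCGAC was in 11.6% of the 1959 promoters of higher genes and 12.3% of the 2981 of lower genes, against 12.7% of all. ACGTG was in 25.7% and 25.3%, against 23.1% of all, and in 33.0% and 31.6% of those that differed by 2-fold or more. The G-box CACGTG, which contains ACGTG, was in 6.33% of higher and 8.22% of lower genes, against 6.89% of all. The W-box variants TTGACT and TTGACC, known targets of WRKY factors, were in 21.8% and 14.8% of higher genes and in 15.7% and 10.03% of lower genes, against 18.6% and 12.1% of all. Both strands were searched, and these shares are given with no test.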

How the data were processed

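RNA-seq of 8 libraries, 2 for each of 4 genotypes, is held in 1 deposited table of normalised counts (a signal scale) for 32548 loci. HISAT2, edgeR and the build TAIR10 are listed without roles in the submitters' processing notes. Which counter and annotation the authors used, and whether strand, is not given here. The deposited signal values are not whole numbers, so the count model foreseen for raw counts was not fitted.

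The 25459 loci that reached a value of 1 in at least 2 of the 8 libraries were fitted with limma 3.58.1 (R 4.3.3) on log2(value + 1), with genotype alone and a trended prior variance. The fit left 4 residual degrees of freedom, to which the prior added 4.42. Fold changes on this scale understate the changes of low genes. P-values are two-sided, adjusted over all loci fitted, and called under 0.05. Tables and exact Poisson-based 95% intervals were made with python 3.11.15, pandas 2.3.3 and scipy 1.17.1. The model was also run on simulated data, whose replicate spread was set and not estimated from these libraries. That run checks the code and does not give the error rate of the calls here. The depth of about 20420912 to 22088405 reads a library limits the precision of low genes.

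The loci, the 52 gene lists and the tests were chosen with earlier results of these data known. Of 629 list entries, 6 have no name in the reference. Named genes are the SAGA subunits, the 12 largest called differences in each direction with a symbol and separate groups, the 3 largest without one, up to 6 called members of each list, the 8 in each direction called alike against all 3 other genotypes, and the 6 largest against hag1 and against ada2b, besides those said to have been chosen after their values were seen. Promoters and gene names are from RefSeq's TAIR10.1. Replicate numbers are shared between genotypes, and the main fit did not use them to pair the libraries.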

Additional observations from a re-analysis of the deposited data

How the results depend on the processing

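No named gene changed direction under any alternative tried. These were median-ratio and upper-quartile scaling, pseudocounts of 0.1 and 5, no filter, a filter at the 10-or-more rule, a replicate block, a fit of the 2 groups alone, no trend of the prior variance, and leaving out each library. The counts of called genes did change, and the cause was not tested. More genes were lower than higher against wild type in each of them. Against ada2b, with 3597 higher and 3754 lower as reported, more were higher under both scalings (3873 and 2743 with median ratios), the block, no trend, the 2 groups alone and each left-out library. Against hag1, with 3770 higher and 3546 lower, more were lower in the 2 groups alone and without scs1 scs2a replicate 1 (2062 and 2089). Fitted on the 2 groups alone, 1034 genes were higher than in wild type, 1931 higher and 2092 lower than in hag1, and 2038 higher and 1860 lower than in ada2b. With no trend, 828 were higher and 1719 lower than in wild type, and 2031 lower than in ada2b. Upper-quartile scaling gave 2148 lower than in ada2b. With 1 library left out, 397 to 1071 genes were higher than in wild type and 768 to 2032 lower, and by 2-fold or more 125 to 210 and 214 to 509. Against hag1 the ranges were 2062 to 2794 higher and 2089 to 2412 lower, and against ada2b 2119 to 2436 and 1700 to 1879. Where a group then held 1 library, that library was assumed to vary like the others.

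With the replicate number as a block, 1690 genes were higher and 2702 lower than in wild type, 3508 and 3329 for hag1, and 3392 and 3347 for ada2b. Deviations of same-numbered libraries correlated at -0.0799 between scs1 scs2a and wild type and at -0.0799 to 0.112 over all genotypes. A correlation over all loci cannot show a replicate effect in a small set of genes. The touch and early stress list, picked after its values were seen, had a higher sum in replicate 2 of every genotype. Its sums were 7925 and 10095 in scs1 scs2a and 4452 and 5214 in wild type. They were 13509 and 18295 in hag1 and 12754 and 19317 in ada2b. Of that list 5 genes were called higher, and 12 with the block. Under the block 15 named genes lost their call.

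Of 235 called genes among the 301 chosen for naming, 150 lost the call without at least 1 library, 61 in the fit of the 2 groups alone, and 71 under at least 1 of the other alternatives. The scalings set the median difference of all 21642 loci at 0.0003 (median-ratio) and 0.02 (upper-quartile), against 0.01 as deposited. Depth limits genes below about 10 normalised counts, where a difference was not detectable unless large.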
